A study of Mus musculus with 8 samples.

Results

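A set of 10 genes of the rhombic lip and dorsal hindbrain was followed in the whole brain of E14.5 mouse embryos. The set is named after the tissue at the dorsal edge of the hindbrain, and it holds 10 of the 33971 genes in the deposited table. It was chosen from the diet contrast itself, since the fold changes between the diets were known when its names were put together. The difference of each of the 10 genes between the diets is therefore described here without a p-value, and tests are given for other genes alone. Lists of other genes were also put together with earlier results of these data known. Their counts of calls are a description, and no list was tested as a set. The 10 genes are *Olig3*, *Atoh1*, *Ptf1a*, *Lmx1a*, *Gdf7*, *Barhl1*, *Barhl2*, *Lhx9*, *Pax3* and *Pax7*, and all 10 were found by name.

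The embryos were wild-type (WT), as were the mated females and males. From the mating day, dams were fed either normal chow (ND) or food that was choline deficient (CDD), and 4 embryonic brains per diet were sequenced in bulk after selection of poly-A RNA. The comparison asks whether a lack of choline in the mother is followed by a change in gene expression in the embryonic brain. One supplementary legend places the start of the diet earlier, before mating, so the length of the diet has 2 readings. Neither the number of dams nor the assignment of embryos to litters is given, and the test below therefore measures the spread between these brains, which may share a mother. In whole brain, fewer cells of a type and less RNA per cell cannot be told apart.

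The rhombic lip is the germinal zone that borders the roof of the fourth ventricle. Its progenitors give rise to the granule cells of the cerebellum and to several nuclei of the hindbrain, and neighboring progenitors that use *Ptf1a* give rise to inhibitory neurons. Signals of the Bmp and Wnt families from the roof plate pattern this region, bHLH factors such as *Atoh1* and *Olig3* set the fate of its progenitors, and homeodomain factors such as the Barhl proteins act in the neurons that leave it.

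Of the 10 genes, *Olig3* differed most between the diets. Its level was 2.15-fold that of ND brains in CDD brains, and the diets did not overlap. *Lmx1a* was at 1.34-fold, *Gdf7* at 1.30-fold, *Pax3* at 1.18-fold and *Lhx9* at 1.08-fold the ND level. *Barhl1*, *Atoh1*, *Pax7* and *Barhl2* differed from the ND level by -21.9%, -17.6%, -3.51% and -1.69%. Of the factors best known from rhombic lip and cerebellar progenitors, *Ptf1a* was the lowest of the 10 and close to the detection limit, and *Atoh1* varied more between CDD brains than any other gene of the set that passed the filter on low counts. The brain labelled CDD replicate 2 stood apart in genes of the caudal hindbrain. Over all genes tested, CDD replicate 4 was most often the lowest or the highest brain. Values without each of them are given below.

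The promoters of the 3 genes that lay past the threshold in the test over all genes are printed here. They were chosen after the values had been seen. Each run holds the 250 bases before the transcription start as RefSeq gives it on GRCm38.p6, 5′ to 3′ on the strand of the gene, and capitals mark the E-box CANNTG, the pattern that bHLH proteins bind.
Olig3, chr10:19356289-19356538, plus strand: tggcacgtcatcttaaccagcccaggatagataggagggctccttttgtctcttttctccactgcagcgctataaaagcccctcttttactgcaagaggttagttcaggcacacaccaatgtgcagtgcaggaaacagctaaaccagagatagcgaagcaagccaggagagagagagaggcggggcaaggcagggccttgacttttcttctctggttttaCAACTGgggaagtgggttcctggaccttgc
Lmx1a, chr1:167689308-167689557, plus strand: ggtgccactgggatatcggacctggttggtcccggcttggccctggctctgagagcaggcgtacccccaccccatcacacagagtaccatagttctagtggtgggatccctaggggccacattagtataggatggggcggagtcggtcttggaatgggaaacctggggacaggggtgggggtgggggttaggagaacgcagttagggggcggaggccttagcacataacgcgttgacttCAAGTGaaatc
Barhl1, chr2:28916669-28916918, minus strand: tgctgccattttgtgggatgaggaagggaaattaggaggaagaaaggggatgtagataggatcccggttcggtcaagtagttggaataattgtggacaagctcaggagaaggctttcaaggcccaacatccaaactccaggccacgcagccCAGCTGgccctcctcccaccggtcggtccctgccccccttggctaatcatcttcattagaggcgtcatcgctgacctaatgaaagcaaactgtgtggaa

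An entry of the RefSeq promoter table was found for 9 of the 10 genes. Its windows reach from 250 bases before to 50 after the start. CANNTG, which reads the same on both strands, stands in 72.3% of its 32851 windows, so a match is common. The form CAGCTG, seen in *Barhl1*, stands in 16.3% of all windows and CATATG in 3.91%, and both are forms of CANNTG. The homeodomain core TAATTA stands in 5.29% of windows, and among the set it was found in a *Barhl1* window, after the start. That is the window whose first 250 bases are printed. A further *Barhl1* window, chr2:28912446-28912745, is not printed. It holds 2 matches to CANNTG, 1 of them CAGCTG, and 0 to TAATTA. The windows of *Atoh1*, *Ptf1a*, *Gdf7* and *Pax7* hold none of the 4 patterns. Gene positions below are those of the deposited table, which names no genome build. The start of 0 of the 10 genes is the same in GENCODE M21 on GRCm38, so those positions cannot be set beside the promoter coordinates.

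Reads were counted per gene, and closely related copies could share reads. Between *Pax3* and *Pax7*, the longest identical stretch of coding transcript in GENCODE M21 is 26 bases long, and between *Barhl1* and *Barhl2* it is 23 bases long. Both are shown because the levels of these pairs are compared below.
Pax3 and Pax7: ctggaagtgtccacccctcttggcca
Barhl1 and Barhl2: gtcaagacctggtaccagaaccg

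The authors counted between 31770217 and 43121170 reads per brain on genes. Levels are given as CPM, the reads of a gene scaled to the size of the library, after TMM scaling, whose factors lay between 0.967 and 1.01. Of 19367 genes that passed a filter on low counts, 1710 (8.83%) were called different between the diets by edgeR's quasi-likelihood test at a Benjamini-Hochberg adjusted p under 0.05. Of the tested genes, 4.24% were called higher in CDD and 4.59% lower, and in 15.0% the 4 CDD brains did not overlap the 4 ND brains. The median log2 fold change of the tested genes was -0.0038. The number of calls changed when single brains were left out, from 471 without ND replicate 3 to 2495 without CDD replicate 3. It was 688 without ND replicate 1 and 615 without ND replicate 4. Leaving out a brain also makes its group smaller.

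In CDD replicate 2, 28 Hox genes, which mark the hindbrain behind the cerebellar territory and the spinal cord, together reached 144 CPM. The summed level was 3.38 CPM in CDD replicate 1, 0.534 and 0.603 in CDD replicates 3 and 4, and 0.468 to 1.42 in the ND brains. *Hoxa5*, at 33.1 CPM in CDD replicate 2, was at 0 counts in the other 7 brains, which allows up to 0.0938 CPM there. The brain labelled CDD replicate 2 thus held Hox RNA that the others nearly lacked. Among 16 forebrain genes its level was the lowest of the 8 brains in 12, and among 14 midbrain and pretectum genes it was the highest in 9. Over all genes tested, another brain was most often at an extreme. CDD replicate 4 was the lowest brain in 23.7% of them and the highest in 21.7%. ND replicate 3 came next, with 13.3% and 14.4%.

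The filter on low counts was passed by 9 of the 10 genes, and not by *Ptf1a*. Of those 9, 3 lay past the threshold of the test over all genes (*Olig3* and *Lmx1a* higher, *Barhl1* lower), and 3 did not overlap between the diets (*Olig3* and *Lhx9* above, *Barhl1* below). These counts stand beside the background of 8.83% called and 15.0% not overlapping, and nothing is read from them, because this contrast chose the genes. The count past the threshold was 1 without CDD replicate 1, ND replicate 1 or ND replicate 3 and 2 without ND replicate 2 or 4. With single brains left out, *Olig3* stayed past it in 8 of 8 fits, *Lmx1a* in 5 and *Barhl1* in 3. The median log2 fold change of the 9 was 0.12, and 5 of 9 were above 0. Without CDD replicate 4, the log2 fold change was 1.04 for *Olig3*, 0.35 for *Lmx1a* and -0.26 for *Barhl1*. With all brains these values were 1.10, 0.42 and -0.36.

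**Figure D1:**
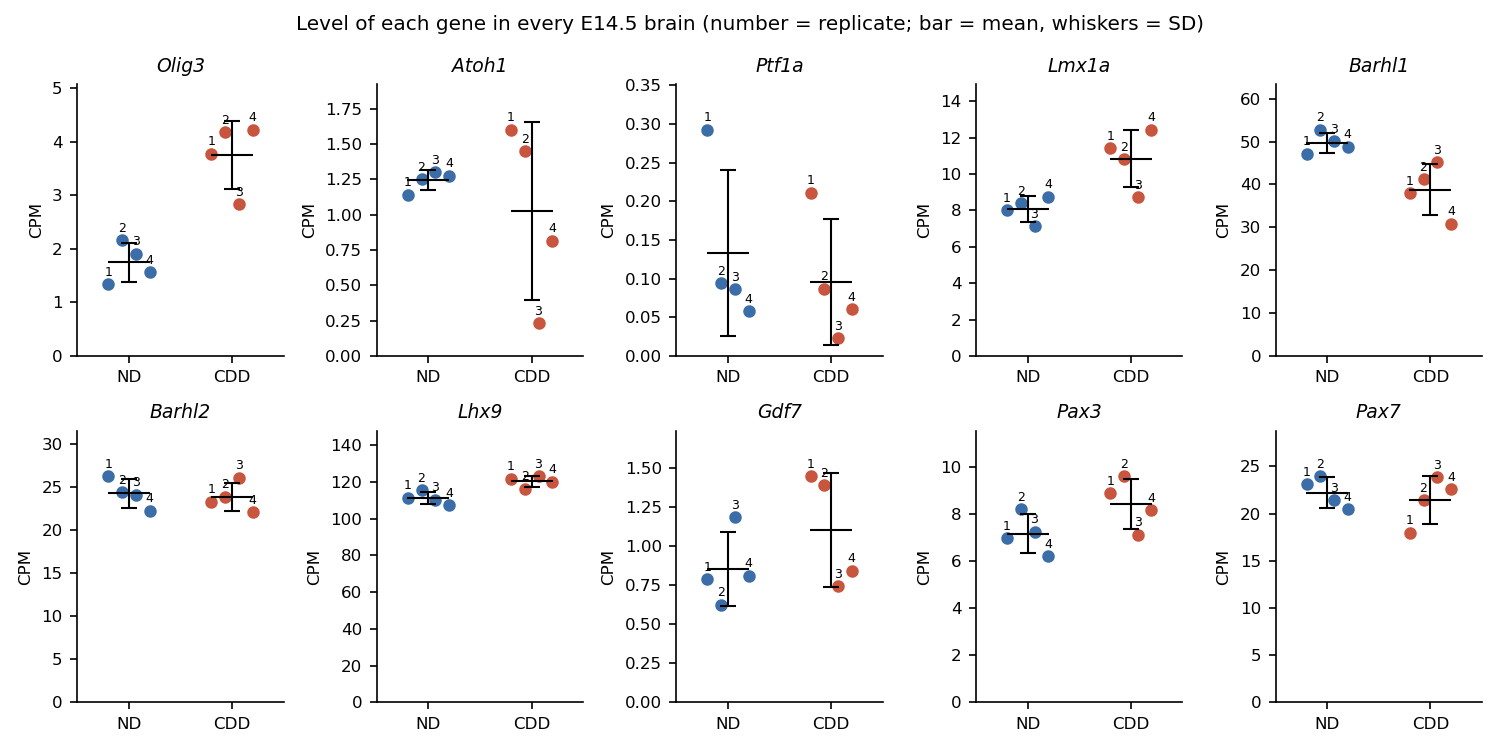
Level of the 10 genes in each E14.5 brain, in CPM on the vertical axes, with ND brains in blue and CDD brains in red, the replicate number above each point, and the mean and SD (n = 4) in black. *Olig3* lies between 1.35 and 2.16 CPM in ND and between 2.83 and 4.22 CPM in CDD, and *Atoh1* spreads from 0.232 to 1.60 CPM within CDD.

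Among the bHLH factors, *Olig3* (ENSMUSG00000045591, chr10:19232281-19234352, plus strand) marks progenitors of the lower rhombic lip and of the dorsal spinal cord, and it is also found in the embryonic thalamus. Per brain, it measured 3.77, 4.17, 2.83 and 4.22 CPM in CDD replicates 1 to 4. In ND replicates 1 to 4, it measured 1.35, 2.16, 1.91 and 1.57 CPM. Every CDD brain was above every ND brain, and CDD replicate 3 was the lowest of its diet. These levels rest on 122 to 144 reads per CDD brain and 46 to 69 reads per ND brain. The exact 95% binomial interval of the lowest CDD brain, 2.35 to 3.38 CPM, overlapped that of the highest ND brain, 1.68 to 2.73 CPM, and such intervals cover counting error alone. The means were 3.75 ± 0.643 CPM in CDD and 1.74 ± 0.360 CPM in ND (SD, n = 4 each).

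The fitted log2 fold change of *Olig3* was 1.10 with a standard error of 0.17. Of the 19367 genes tested, 18 had a larger log2 fold change, and nothing is read from this rank because the contrast chose the gene. The fitted value of *Olig3* ranged from 1.00 to 1.22 when single brains were dropped, and it was 1.04 without CDD replicate 2. That fit still held CDD replicate 1, whose summed Hox level was 3.38 CPM, against 0.468 to 1.42 CPM in the ND brains. Whether caudal tissue had a part in the *Olig3* difference was not tested. From the deposited FPKM values the log2 fold change of *Olig3* was 0.61 with a pseudocount of 1 and 1.03 with a pseudocount of 0.1. A pseudocount of 1 is of the size of these values.

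*Atoh1* (ENSMUSG00000073043, chr6:64706109-64708229, plus strand), the proneural factor of granule cell precursors and of hair cells in the inner ear, measured 1.60, 1.45, 0.232 and 0.814 CPM in CDD replicates 1 to 4. In ND replicates 1 to 4 it measured 1.14, 1.25, 1.30 and 1.28 CPM. The ND brains lay close together, while the CDD brains fell on both sides of them. CDD replicate 3 rested on 10 reads, and its interval of 0.111 to 0.427 CPM lay below that of the lowest ND brain, 0.811 to 1.56 CPM. The coefficient of variation between brains was 61.3% in CDD and 5.68% in ND.

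The fitted log2 fold change of *Atoh1* was -0.31 with a standard error of 0.42. It turned to 0.05 when CDD replicate 3 was left out, and its lowest value was -0.61. The sign of the difference thus came from 1 brain. The biological coefficient of variation in the fit was 0.389 for *Atoh1*, against a median of 0.0823 over the genes tested and 0.148 for *Olig3*.

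*Ptf1a* (ENSMUSG00000026735, chr2:19450474-19452312, plus strand), which directs progenitors toward inhibitory neurons in cerebellum and dorsal hindbrain and is also a factor of the pancreas, was close to the detection limit. The reads per brain were 7, 3, 1 and 2 in CDD replicates 1 to 4 and 10, 3, 3 and 2 in ND replicates 1 to 4. That is 0.211, 0.0869, 0.0232 and 0.0603 CPM in CDD and 0.293, 0.0938, 0.0867 and 0.0580 CPM in ND. In 6 of the 8 brains there were 3 reads or fewer. No fold change is given, and a difference between the diets was not detectable at this depth.

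For the roof plate, *Lmx1a* (ENSMUSG00000026686, chr1:167516806-167676310, plus strand) encodes a LIM homeodomain protein needed to form this structure, which also acts in the cortical hem and in dopaminergic neurons of the midbrain. Its level was 11.4, 10.8, 8.74 and 12.4 CPM in CDD replicates 1 to 4. In ND replicates 1 to 4 the level was 8.02, 8.38, 7.14 and 8.75 CPM. The diets overlapped narrowly, since CDD replicate 3 was just under ND replicate 4, and the other 3 CDD brains were above every ND brain. The means were 10.8 ± 1.56 CPM in CDD and 8.07 ± 0.690 CPM in ND (SD, n = 4 each). The log2 fold change was 0.42 with a standard error of 0.10, and it lay between 0.35 and 0.52 with a brain left out.

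*Gdf7* (ENSMUSG00000037660, chr12:8347918-8351954, minus strand), a Bmp-family ligand made by the roof plate, measured 1.45, 1.39, 0.743 and 0.845 CPM in CDD replicates 1 to 4. In ND replicates 1 to 4, *Gdf7* measured 0.790, 0.625, 1.19 and 0.812 CPM. The diets overlapped, and 20 to 48 reads lay behind each value. The log2 fold change was 0.36 with a standard error of 0.27, and it was 0.23 without CDD replicate 2.

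The homeodomain factors act mainly in neurons that have left the rhombic lip. *Barhl1* (ENSMUSG00000026805, chr2:28797691-28806680, minus strand) is expressed in granule cells, in the superior colliculus and in the mammillary region. It measured 38.0, 41.2, 45.1 and 30.9 CPM in CDD replicates 1 to 4. In ND replicates 1 to 4, *Barhl1* was at 47.2, 52.8, 50.2 and 48.8 CPM. Every CDD brain was below every ND brain, with CDD replicate 3 nearest to them and CDD replicate 4 farthest. The means were 38.8 ± 6.03 CPM in CDD and 49.7 ± 2.37 CPM in ND (SD, n = 4 each). The log2 fold change was -0.36 with a standard error of 0.092. It was -0.44 to -0.26 with a brain left out.

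*Barhl2* (ENSMUSG00000034384, chr5:106600389-106606032, minus strand), the paralog of *Barhl1* with a wider domain in diencephalon and spinal cord, lay close to its ND level in CDD. It measured 23.3, 23.8, 26.0 and 22.0 CPM in CDD and 26.2, 24.4, 24.1 and 22.2 CPM in ND, each in the order of replicates 1 to 4. The log2 fold change was -0.023 with a standard error of 0.068, and its sign changed when single brains were left out (-0.069 to 0.019). The difference between *Barhl1* and *Barhl2* itself was not tested.

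*Lhx9* (ENSMUSG00000019230, chr1:138752924-138776315, minus strand), a LIM homeodomain factor of cerebellar nuclear and commissural neurons that is also strong in thalamus and tectum, measured 121.8, 116, 123 and 120.2 CPM in CDD. It measured 111, 115, 110.3 and 107 CPM in ND. Every CDD brain was above every ND brain, by a narrow margin, and the brains of a diet lay closer together than for any other gene of the set (coefficient of variation 2.41% in CDD and 2.97% in ND). The log2 fold change was 0.12 with a standard error of 0.040, and it stayed between 0.10 and 0.13 with a brain left out.

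*Pax3* (ENSMUSG00000004872, chr1:78077904-78173771, minus strand) and *Pax7* (ENSMUSG00000028736, chr4:139464373-139560839, minus strand) encode paired-box factors of the dorsal, or alar, part of the neural tube. They also mark neural crest and muscle progenitors, and *Pax7* is strong in the dorsal midbrain. *Pax3* measured 8.91, 9.62, 7.13 and 8.17 CPM in CDD and 6.99, 8.22, 7.26 and 6.23 CPM in ND. *Pax7* measured 18.0, 21.4, 23.9 and 22.6 CPM in CDD and 23.1, 23.9, 21.4 and 20.4 CPM in ND. In both genes the diets overlapped. The log2 fold change was 0.24 with a standard error of 0.11 for *Pax3*, 0.17 without CDD replicate 2, and -0.049 with a standard error of 0.081 for *Pax7*.

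**Figure D2:**
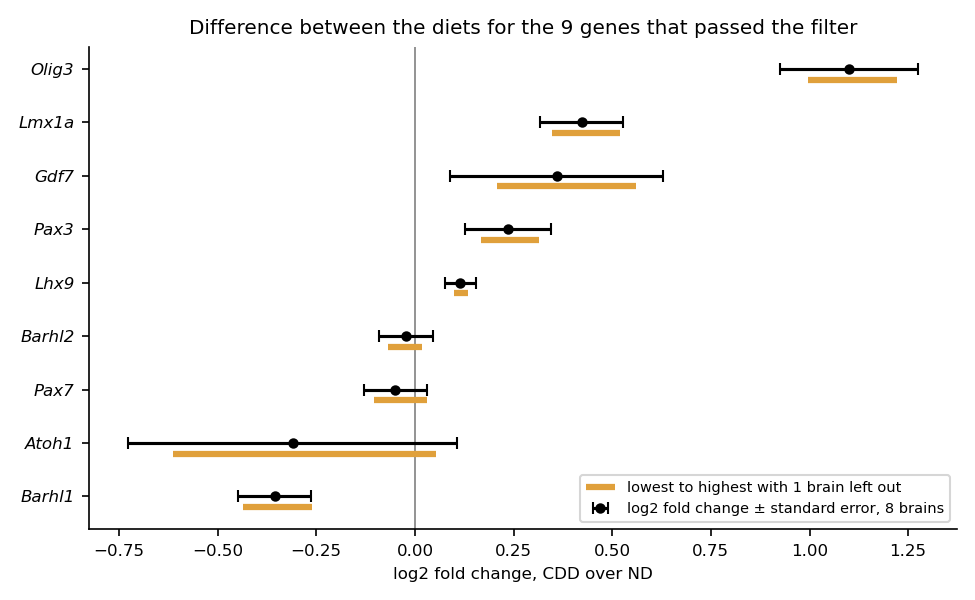
Log2 fold change of CDD over ND for the 9 genes that passed the filter, with its standard error in black (8 brains) and, in orange, the range when each brain was left out in turn. *Olig3* stands at 1.10 and *Barhl1* at -0.36, and the orange ranges of *Atoh1*, *Barhl2* and *Pax7* cross 0.

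Levels of different genes were compared per length, as RPKM computed from the scaled counts and the deposited gene length. In ND brains the order from the top was *Barhl1* (12.7 ± 0.608 RPKM), *Lhx9* (11.7 ± 0.348), *Barhl2* (10.5 ± 0.708), *Pax7* (3.79 ± 0.272) and *Lmx1a* (2.38 ± 0.203). *Pax3* (1.16 ± 0.133 RPKM), *Olig3* (0.842 ± 0.174), *Gdf7* (0.599 ± 0.166), *Atoh1* (0.586 ± 0.033) and *Ptf1a* (0.088 ± 0.071) followed. The ranges of the ND brains overlapped between *Barhl1* and *Lhx9*, between *Lhx9* and *Barhl2*, and from *Pax3* down to *Atoh1* between each gene and the next, so those neighbors were not separated. In CDD brains the order of the means had *Lhx9* at the top, at 12.7 ± 0.306 RPKM, and *Barhl1*, at 9.94 ± 1.54 RPKM, below *Barhl2*, at 10.3 ± 0.722 RPKM. The mean of *Olig3* was above that of *Pax3* there, with 1.81 ± 0.310 against 1.37 ± 0.172 RPKM. The ranges of the CDD brains overlapped in both of these pairs.

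The label of the set was read against these levels. The high genes, *Barhl1*, *Barhl2*, *Lhx9* and *Pax7*, have known domains in midbrain, thalamus or hypothalamus, whereas the progenitor factor *Ptf1a* stood at the bottom, and *Atoh1* above it was not separated from the roof plate ligand *Gdf7*. How much of each gene's RNA came from the rhombic lip was not measured in whole brain. Of markers of other tissues that use the same factors, the muscle list summed to 4.07 to 5.43 CPM in CDD and 4.35 to 5.84 CPM in ND over 10 genes. Of its 4 tested genes, 0 were called by edgeR, DESeq2 or limma-voom (0 at an unadjusted p under 0.05 in edgeR), and the muscle regulators *Myod1*, *Myf5*, *Myog* and *Myf6* and the enzyme gene *Ckm* were each at 0 counts in at least 1 brain. *Myh8* and *Des* were its highest genes. Their part in the levels of *Pax3* and *Pax7* was not tested.

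The neural crest and melanocyte list reached 91.9 to 120.2 CPM in CDD and 91.5 to 95.4 CPM in ND, mostly through *Ednrb*, which glia also use, and 1 of its 7 tested genes, *Dct*, was called higher (log2 fold change 0.50, adjusted p = 0.0307). That call was lost without CDD replicate 1 or ND replicate 1, 3 or 4, where the adjusted p reached 0.134. *Ednrb* (log2 fold change 0.22) was called by DESeq2 (adjusted p = 0.0336), but not by edgeR (0.0735) or limma-voom (0.0885). *Sox10*, which defines neural crest and also oligodendrocyte precursors, measured 2.66, 4.40, 4.11 and 1.87 CPM in CDD and 5.44, 4.97, 4.83 and 5.51 CPM in ND, so that every CDD brain was below every ND brain. Its log2 fold change was -0.66, with an adjusted p of 0.0644 by edgeR, 0.0113 by DESeq2 and 0.0403 by limma-voom. *Tyr* was at 0 counts in 1 or more brains. Hair cells also use *Atoh1* and *Barhl1*, and of 4 tested genes of the inner ear list *Otof* was lower in CDD (-0.53, adjusted p = 0.00153). *Myo7a* and *Myo6*, the highest of that list, had log2 fold changes of -0.01 and 0.01, and *Lhx3* was at 0 in 1 or more brains. In the retina list 2 of 6 tested genes were called higher, among them *Otx2* (0.20, adjusted p = 0.0327). *Otx2* was called in 4 of 8 sets with a brain left out (lost without CDD replicate 1 or ND replicate 1, 3 or 4, up to 0.131). *Otx2* and *Rlbp1* were the highest genes of the retina list, and *Otx2* also stands in the lists of midbrain and choroid plexus. *Rlbp1* was lower in every CDD brain than in every ND brain, with a log2 fold change of -0.16. Its adjusted p was 0.0630 by edgeR, 0.0341 by DESeq2 and 0.0578 by limma-voom.

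Choroid plexus, which grows from the roof of the ventricles beside the rhombic lip, varied within CDD. Its 9 markers summed to 549, 368, 335 and 236 CPM in CDD replicates 1 to 4 and to 332 to 370 CPM in ND, through *Ttr*. Of the 9, *Otx2* was called by edgeR. *Clic6* measured 30.0, 23.7, 19.9 and 19.2 CPM in CDD replicates 1 to 4 and 16.2 to 18.6 CPM in ND, without overlap. Its log2 fold change was 0.43, with an adjusted p of 0.0562 by edgeR, 0.00339 by DESeq2 and 0.0729 by limma-voom. The 8 meningeal markers summed to 463 to 515 CPM in CDD and 491 to 587 CPM in ND, with 2 called higher and 3 lower. The retinoic acid enzyme gene *Aldh1a2* was lower in CDD, with a log2 fold change of -0.50 (adjusted p = 0.00507), without overlap, and held in 8 of 8 sets with a brain left out. *Col1a1* (-0.23, adjusted p = 0.0126) was lost without ND replicate 1 or 3, and *Col1a2* (-0.23, adjusted p = 0.0453), *Crabp2* (0.38, adjusted p = 0.0353) and *Lum* (0.29, adjusted p = 0.0474) were each called in 3 or fewer of those sets. The part of these tissues in the levels of *Lmx1a* and *Gdf7* was not tested.

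**Figure D3:**
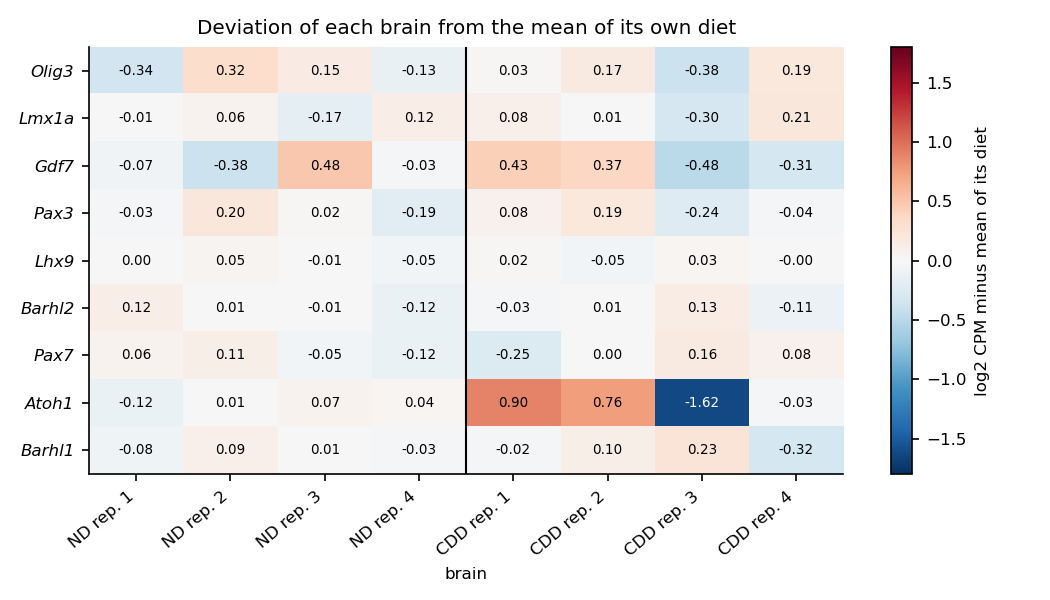
Deviation of each brain from the mean of its own diet, on the log2 CPM scale, for the 9 genes that passed the filter, with brains along the horizontal axis and a color scale centered on 0. *Atoh1* is at 0.90 and 0.76 in CDD replicates 1 and 2 and at -1.62 in CDD replicate 3, while *Lhx9* and *Barhl2* stay near 0.

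Within a diet, the genes did not all vary in the same direction. After the mean of each diet was removed, the Pearson correlation over the 8 brains lay between -0.76 (*Gdf7* with *Pax7*) and 0.76 (*Olig3* with *Pax3*) across 36 pairs. *Atoh1* was correlated with *Gdf7* at 0.73, with *Pax3* at 0.71, with *Lmx1a* at 0.64 and with *Olig3* at 0.59. The deviation of *Atoh1* lay between -0.12 and 0.07 in the ND brains and was 0.90, 0.76 and -1.62 in CDD replicates 1 to 3. Its coefficients therefore rest mainly on those CDD brains, and CDD replicate 3 had 10 *Atoh1* reads. *Barhl1* was correlated with *Barhl2* at 0.60 and with *Lmx1a* at -0.74. These coefficients are a description over 8 libraries, 1 per brain. *Atoh1* and *Gdf7* both measured more in CDD replicates 1 and 2 than in CDD replicates 3 and 4, although in both genes the counting intervals of CDD replicates 2 and 4 overlapped. The summed Hox level was also higher in CDD replicates 1 and 2. Whether the amount of hindbrain in each sample had a part in this was not tested.

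Among 15880 other genes that averaged 1 CPM or more, the mean deviation of the 9 genes was closely matched by those of *2610044O15Rik8* (0.977), *Tent5a* (0.970), *E230029C05Rik* (0.962) and *Prps2* (0.957), by Pearson's correlation over 8 brains. Because *Atoh1* deviates most, it weighs most in that mean. The named genes were picked from the top of 15880 correlations over 8 brains, and whether such values exceed chance was not tested.

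Other genes of the same lineages were read from lists of names that share some genes, put together with earlier results of these data known. Over all genes tested, 4.24% were called higher in CDD and 4.59% lower. The share was larger in 2 families to which many listed factors belong. Of 82 tested bHLH genes outside the set, 11 were called higher and 10 lower (25.6%). Of 103 such homeobox genes, 12 were called higher and 2 lower (13.6%). Of 18 rhombic lip lineage genes, 3 were called higher and none lower, with a median log2 fold change of 0.093 against -0.0038 over all genes tested. *Nhlh1* and *Nhlh2*, bHLH genes of young neurons, were higher in CDD by 0.49 (adjusted p = 0.00188) and 0.30 (adjusted p = 0.00870), and *Pax6*, a factor of granule cell precursors and of cortical progenitors, by 0.25 (adjusted p = 0.00642), by edgeR with Benjamini-Hochberg adjustment over all genes. *Nhlh1* measured 24.5, 25.2, 23.3 and 26.9 CPM in CDD and 19.4, 19.2, 14.7 and 17.9 CPM in ND, without overlap. All 3 calls held in 8 of 8 sets with a brain left out. The other 15, among them *Zic1*, *Reln* and *Cbln1*, were not called, and DESeq2 and limma-voom called 0 lower as well.

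Of 20 genes of the *Ptf1a* domain and of dorsal interneurons, 3 were called higher and none lower, with a median log2 fold change of 0.25, which was 0.13 without CDD replicate 2. *Neurog2*, a proneural gene that is also strong in forebrain progenitors, was higher by 0.32 (adjusted p = 0.00475). *Lhx1*, a LIM homeodomain gene of inhibitory and Purkinje neurons, was higher by 0.29 (adjusted p = 0.0155). In both genes every CDD brain was above every ND brain. *Neurog2* was called in 8 of 8 sets with a brain left out. *Lhx1* was lost without ND replicate 1 or 3, with an adjusted p of up to 0.0624.

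**Figure D4:**
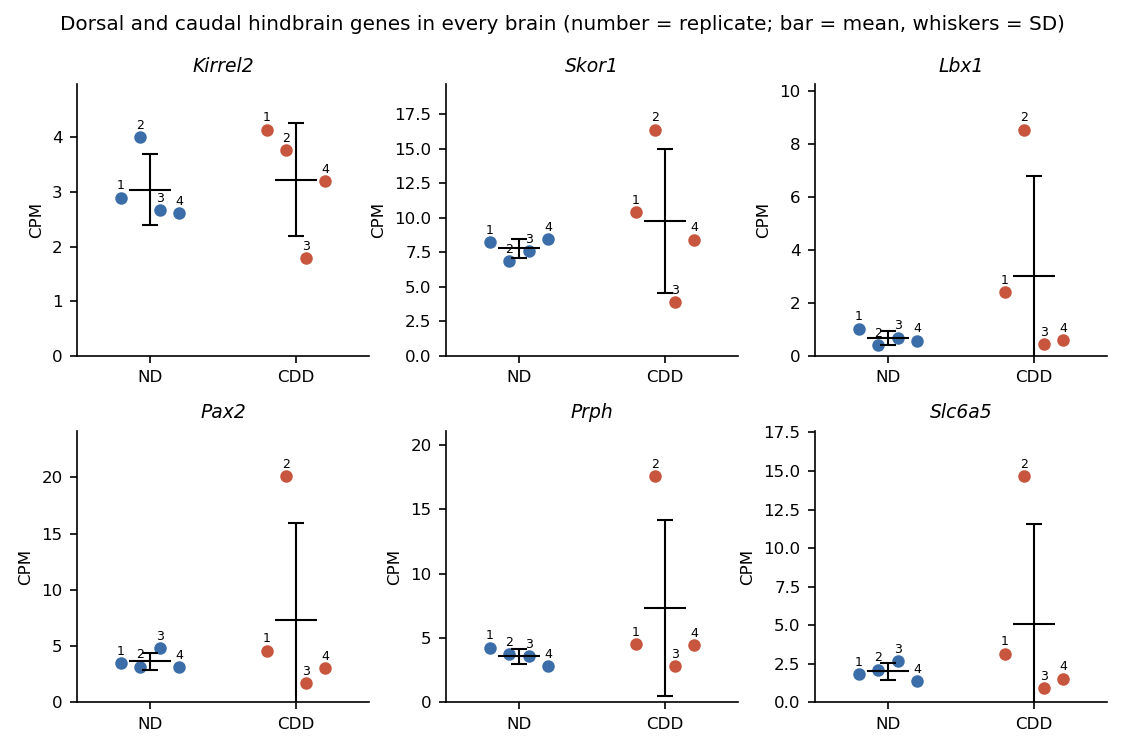
Level of 6 genes of dorsal and caudal hindbrain in each brain, in CPM, with ND in blue, CDD in red, the replicate number above each point, and mean and SD (n = 4) in black, whose whiskers are cut at 0. The genes were chosen after their values were seen, and CDD replicate 2 is the highest of 8 brains in *Skor1*, *Lbx1*, *Pax2*, *Prph* and *Slc6a5*.

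Several genes of the *Ptf1a* domain list had their extreme in a single CDD brain. Of its 20 genes, 10 were highest in CDD replicate 2 and 8 were lowest in CDD replicate 3, where 11.5% and 9.73% of all tested genes had their extreme. *Lbx1*, a factor of dorsal hindbrain and spinal interneurons, measured 2.42, 8.55, 0.441 and 0.603 CPM in CDD replicates 1 to 4 and 0.406 to 1.02 CPM in ND. *Pax2*, which marks inhibitory interneurons and the isthmus, reached 20.1 CPM in CDD replicate 2 against 1.70 to 4.80 CPM in the other 7 brains. *Skor1*, expressed in dorsal interneurons, measured 16.4 CPM in CDD replicate 2 but 3.88 CPM in replicate 3 of that diet, with 6.85 to 8.44 CPM in ND. *Kirrel2*, which is turned on by *Ptf1a*, measured 4.14, 3.77, 1.79 and 3.20 CPM in CDD. None of these 4 genes was called by edgeR, with adjusted p between 0.311 and 0.886.

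The caudal hindbrain and spinal cord markers, of which 7 of 22 were tested, had a median log2 fold change of 0.79 and 0 calls by edgeR, DESeq2 or limma-voom (0 at an unadjusted p under 0.05 in edgeR). Without CDD replicate 2, a comparison added after the data were seen, their median was 0.15. Their highest genes were *Isl1*, a motor and sensory neuron factor at 40.3 to 47.1 CPM in CDD and 41.3 to 42.3 CPM in ND, and *Prph*. *Prph*, a filament gene of motor and sensory neurons, measured 17.6 CPM in CDD replicate 2 and 2.81 to 4.53 CPM in the other 7 brains. *Slc6a5*, the glycine transporter of hindbrain and spinal neurons, measured 14.7 CPM there and 0.906 to 3.17 CPM elsewhere. Of the 10 genes themselves, *Pax3* was at its highest in CDD replicate 2 and none was at its lowest.

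In the roof plate list, 18 of 19 genes were tested, 1 was called higher and 2 lower, and the median log2 fold change was 0.14, or 0.051 without CDD replicate 2. *Wnt8b*, a Wnt ligand of the cortical hem and other dorsal midline tissue, was higher in CDD by 0.73 (adjusted p = 0.00286), at 8.30, 6.46, 7.46 and 9.29 CPM in CDD against 4.15, 5.78, 4.83 and 4.20 CPM in ND. It was called in 8 of 8 sets with a brain left out. *Bmp6* and *Gdf10*, ligands of the Bmp family as is *Gdf7*, were lower in CDD, with log2 fold changes of -0.33 (adjusted p = 0.0126) and -0.44 (adjusted p = 0.0392). *Bmp6* was lost without ND replicate 1 or 3 (adjusted p of up to 0.0780). *Gdf10* was lost without CDD replicate 3 or 4 or ND replicate 1, 3 or 4 (up to 0.140). The list as a whole thus had no single direction.

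Of 11 genes of the isthmus and cerebellar territory, *Gbx2* (0.45, adjusted p = 0.0301) and *Fgf17* (0.60, adjusted p = 0.0398) were called higher and none lower, with a median of 0.069. Without CDD replicate 2, the brain rich in Hox RNA, neither was called, the median was -0.036, and the list held 0 calls, as it did without ND replicate 1 or ND replicate 3. In the midbrain and pretectum list, edgeR called 4 of 14 higher and none lower, with a median of 0.077, which was -0.0011 without CDD replicate 2. DESeq2 and limma-voom each called 1 gene of the list lower as well. *Pou4f2*, not called by edgeR (-0.36, adjusted p = 0.0600), measured 12.7 to 18.1 CPM in CDD and 18.9 to 20.6 CPM in ND, without overlap. *Tal2*, a factor of inhibitory midbrain neurons, was higher by 0.58 (adjusted p = 0.00287) and held in 8 of 8 sets with a brain left out. *Tal1* (0.22, adjusted p = 0.0262), *Otx2* and *Tcf7l2* (0.17, adjusted p = 0.0499) did not, and the list held 1 call without ND replicate 1, 3 or 4. *Tal1* was also lost without CDD replicate 2 (adjusted p of up to 0.113 over these sets), *Otx2* without CDD replicate 1 and *Tcf7l2* without CDD replicate 3 or 4 (up to 0.182).

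**Figure D5:**
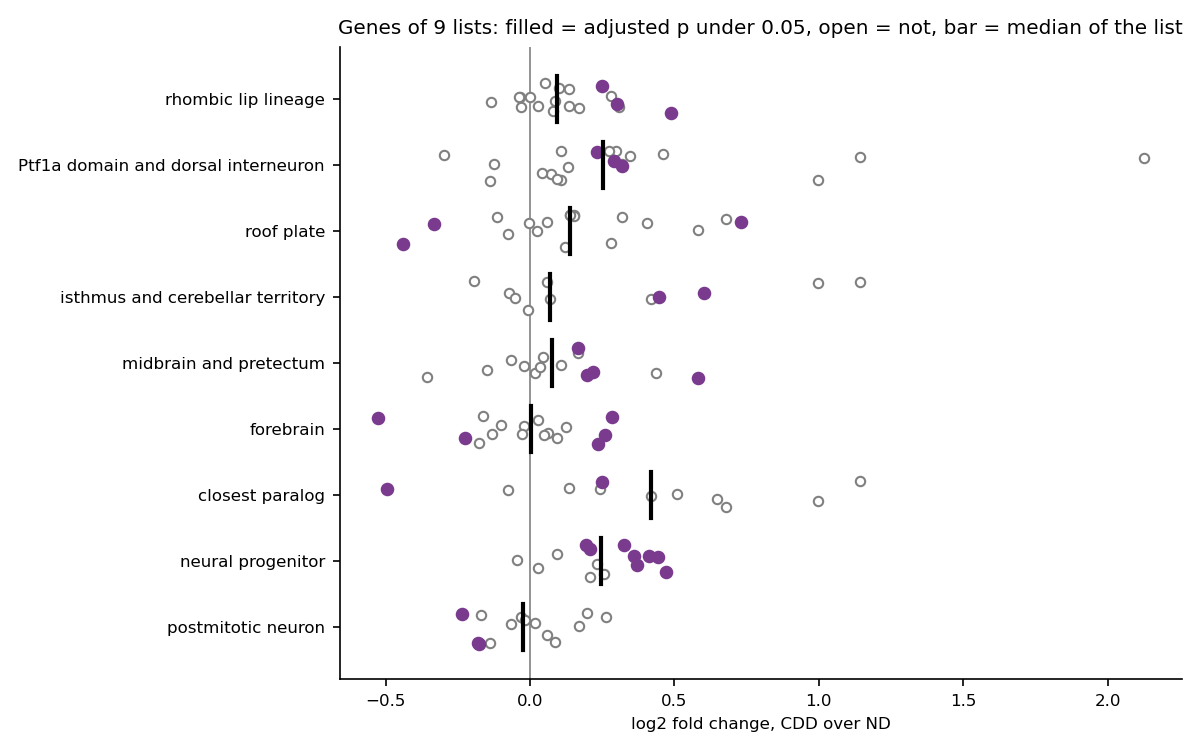
Log2 fold change of CDD over ND for each tested gene of 9 lists, with filled points for an adjusted p under 0.05, open points for the others and a bar at the median of the list. In the neural progenitor list 8 of 14 points are filled, to the right of 0, and the bar stands at 0.24, whereas the bar of the forebrain list stands at 0.0038.

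The forebrain list had a median of 0.0038, which was 0.046 without CDD replicate 2, with 3 of 16 called higher (*Nkx2-1*, *Lhx8* and *Emx2*) and 2 lower, among them *Lhx6* (-0.22). The number of calls was 0 without ND replicate 3, 1 without ND replicate 1 or 4, 2 without CDD replicate 1 and 3 without CDD replicate 4 or ND replicate 2. Of 14 neural progenitor genes, 8 were called higher and none lower, with a median of 0.24. They included the filament gene *Nes* (0.47, adjusted p = 0.00344) and the division genes *Top2a* (0.44, adjusted p = 0.00287), *Ccnb1* (0.37, adjusted p = 0.00213) and *Mcm2* (0.32, adjusted p = 0.00156), which held, as did *Prom1* (0.36), in 8 of 8 sets with a brain left out. *Mki67* (0.41, adjusted p = 0.0359) and *Pcna* (0.19, adjusted p = 0.0224) held in 4 sets and *Vim* (0.21, adjusted p = 0.0183) in 5, and the list held 5 calls without ND replicate 1, 3 or 4. Of 14 genes of postmitotic neurons, 3 were called lower and none higher, with a median of -0.024, which was -0.045 without CDD replicate 2. They were *Snap25* (-0.23, adjusted p = 0.0246), *Syn1* (-0.18, adjusted p = 0.0228) and *Gap43* (-0.18, adjusted p = 0.0484), and the list held 0 calls without ND replicate 1, 3 or 4 and 1 without CDD replicate 1. Whether the balance of progenitors and neurons had a part in the values of the 10 genes was not tested.

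The nearest relatives of the 10 genes held calls in both directions. Of 16 paralogs, 15 were found and 11 were tested, with 1 called higher (*Pax6*) and 1 lower, and their median log2 fold change was 0.42, or 0.26 without CDD replicate 2. *Olig1*, a relative of *Olig3* that marks oligodendrocyte precursors and ventral progenitors, was lower in CDD, with a log2 fold change of -0.50 (adjusted p = 0.00287). It measured 22.4, 29.1, 25.5 and 21.5 CPM in CDD and 35.9, 31.0, 37.2 and 34.8 CPM in ND, and the call held in 8 of 8 sets with a brain left out. *Olig2*, the third member of that family, was at 21.8 to 22.2 CPM in CDD and 22.1 to 24.3 CPM in ND, with a log2 fold change of -0.075 (adjusted p = 0.487). Of the Olig genes, *Olig3* and *Olig1* thus stood without overlap on opposite sides of the ND brains. The difference between their responses was not tested.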

How the data were processed

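Poly-A RNA of 8 whole WT brains at E14.5 was analysed, 4 from dams on CDD and 4 from dams on ND, grouped by the diet in their labels. The authors deposited a raw read count per gene and brain, a normalized signal (the count divided by 1 size factor per library), FPKM values made from that signal, and the gene length. The submitters' processing notes name HISAT2 2.0.5, featureCounts 1.5.0-p3 and DESeq2 1.20.0. The genome build and annotation are not given in the sources used here. Deposited columns of the authors' own comparison (log2 fold change, p-value and adjusted p-value) and 3 shorter lists of genes were not used.

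Counts were filtered with filterByExpr, scaled by TMM and fitted with diet as the single term in edgeR 4.0.16 (robust quasi-likelihood test, two-sided, Benjamini-Hochberg adjustment over 19367 genes, threshold 0.05). Log2 CPM for correlations used a prior count of 2, and RPKM was computed from the scaled count and the deposited length. The exact 95% binomial intervals and the limit of 3 counts for a count of 0 cover counting error. The members and lists were chosen with earlier results of these data known. All members are named, as are the called genes of each list (up to 6 by adjusted p), the 2 highest genes and genes at 0 of each marker list, and the 5 genes most like the members' mean; others were chosen after their values were seen. Some genes selected in these ways are not reported here. No pair of brains agreed within sampling noise (smallest chi-square per degree of freedom 3.53). No batch is named in the labels. Alternatives were DESeq2 1.42.0, RLE and upper-quartile scaling, limma-voom (limma 3.58.1), 2 other filters, a replicate block, each brain left out, and FPKM with pseudocounts of 1 and 0.1. Medians of the lists without CDD replicate 2 were added after the data were seen. R 4.3.3, Python 3.11.15, pandas 2.3.3, NumPy 2.4.6 and matplotlib 3.10.9 were used.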

Additional observations from a re-analysis of the deposited data

Results flagged for a closer look

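Among 52 groups of 4 brains, 2 held a brain whose gap to the nearest of the others was large for the range of its group, where chance gives about 2.6. *Ptf1a* measured 0.293 CPM in ND replicate 1, from 10 reads, against 0.0580 to 0.0938 CPM in the other 3 ND brains. The summed level of the caudal hindbrain and spinal cord markers was 216 CPM in CDD replicate 2 and 54.7 to 65.5 CPM in the other 3 CDD brains. How these brains were dissected is not stated, and its part in either value was not tested.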

How the results depend on the processing

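Without a filter on low counts, calls numbered 5 in the rhombic lip lineage list, 5 in the *Ptf1a* domain list, 6 in the roof plate list and 5 in the postmitotic neuron list, against 3 in each, and DESeq2 called 5 in the roof plate list; the cause was not tested. With each brain left out in turn, calls ranged from 471 to 2495 over all genes, 1 to 3 among the members, 3 to 4 in the rhombic lip lineage, 2 to 4 in the *Ptf1a* domain, 1 to 5 in the roof plate, 0 to 2 in the isthmus, 1 to 4 in the midbrain, 0 to 7 in the forebrain, 2 to 3 in the paralog, 5 to 10 in the progenitor and 0 to 5 in the neuron list. Deviations of same-numbered CDD and ND brains were correlated between -0.13 and 0.23, and those of the other pairs between -0.25 and 0.21. These ranges overlap, and whether the numbers pair the brains cannot be told from so few values. With a replicate block, 1812 genes were called in place of 1710, and 3 members as before. No member past the threshold changed its direction under any alternative run. At 1 to 10 reads per brain, *Ptf1a* could not be compared at this depth, and *Atoh1* rested on 10 to 53.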
